A study of Mus musculus with 6 samples.

Results

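Adrenomedullin and the genes of its receptor were followed in 21EM15 cells, an epithelial line derived from the mouse lens. The set held 6 genes: the ligand gene Adm, the receptor gene Calcrl, the receptor activity-modifying protein genes Ramp1, Ramp2 and Ramp3, and the scavenger receptor gene Ackr3. They were measured by every probe to which the platform annotation gives 1 of these symbols, 9 of the 45281 probes on each array, and 5 of the 9, for 3 of the 6 genes, were detected well enough to be tested. The study compared 3 control samples, whose cells carried a lentiviral construct containing GFP, with 3 knockdown samples, whose cells carried a lentiviral construct containing Tdrd7 shRNA. RNA was measured on 1-colour Illumina bead arrays. The labels name no hairpin in the control construct, so effects of a hairpin as such and effects of less Tdrd7 cannot be told apart. They do not say whether the replicates were separate cultures, so the spread between them may be technical. Adm was selected on its measured signal, which differed between these same groups on these arrays, and the other genes because they belong to its receptor. The knockdown values of the members are therefore given as a description and support nothing by themselves.

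Adrenomedullin is a secreted vasodilator peptide, cut from a precursor that Adm encodes and amidated at its end, and its gene is a known target of the hypoxia-inducible factors. Its receptor is a complex of a receptor protein with many membrane passes, encoded by Calcrl, and a single-pass partner. With the product of Ramp2 or Ramp3 the complex binds adrenomedullin, and with that of Ramp1 it binds calcitonin gene-related peptide. Binding raises cyclic AMP through the G protein subunit that Gnas encodes. The product of Ackr3 binds adrenomedullin and the chemokine of Cxcl12 and removes them without this signal. Adrenomedullin signalling is best known from blood and lymph vessels.

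The 250 bases before the start given in the promoter table are shown for Adm and Ramp3, the 2 tested members that have an entry in the promoter table, because their fitted changes ran in opposite directions. Promoters of 5 of the 6 genes were found in RefSeq (build GRCm38.p6). Capitals mark the hypoxia response core GCGTG, which on the opposite strand reads CACGC. The Adm window lies at chr7:110627407-110627656 and the Ramp3 window at chr11:6658283-6658532, both on the plus strand and both ending at the base before that start. The gene record of Adm begins at the same base, while that of Ramp3 begins 27 bases earlier and that of Calcrl 139 bases earlier, so the last bases of those windows lie inside the gene record. Motif positions are counted from the start in the promoter table.
Adm: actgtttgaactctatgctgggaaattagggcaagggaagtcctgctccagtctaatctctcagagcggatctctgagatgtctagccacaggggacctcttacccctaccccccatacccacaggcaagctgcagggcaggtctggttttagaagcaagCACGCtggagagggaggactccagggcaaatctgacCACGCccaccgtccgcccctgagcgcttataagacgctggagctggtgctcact
Ramp3: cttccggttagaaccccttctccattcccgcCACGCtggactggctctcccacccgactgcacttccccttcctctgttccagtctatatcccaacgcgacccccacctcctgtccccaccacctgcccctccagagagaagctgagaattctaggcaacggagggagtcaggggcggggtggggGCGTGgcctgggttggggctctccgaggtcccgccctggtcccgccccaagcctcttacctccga
Both strands were searched for 5 motifs. These were GCGTG and the other form of the hypoxia core, ACGTG, then the cyclic AMP response element TGACGTCA, the AP-1 site TGANTCA and the letters of a TATA box, TATAA. Adm held GCGTG 2 times, at 90 to 86 and at 54 to 50 bases before the start, each on the minus strand. It also held TATAA at 27 to 23 bases before the start, with an overlapping match on the minus strand at 28 to 24. Ramp3 held GCGTG 2 times, at 219 to 215 bases on the minus strand and at 65 to 61 on the plus strand, and Ackr3 held it 1 time, at 120 to 116. Ackr3 also held TATAA, at 8 to 4 bases before the start. None of the 5 motifs was found in the windows of Ramp1 and Calcrl, and neither ACGTG nor the cyclic AMP or AP-1 motif was found in any of the 5 windows. Among all 32851 promoter windows of this length, GCGTG was present in 28.2%, ACGTG in 16.6%, TATAA in 22.8%, the AP-1 motif in 6.75% and the cyclic AMP motif in 1.55%. These matches describe the letters only, and the motif that Adm, Ramp3 and Ackr3 share is a common one.

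On every array 37.2% to 38.8% of the probes were detected, which means a detection p under 0.05, and the median signal lay between 72.6 and 82.6 intensity units. Array numbers are those of the scanner table, where 1 to 3 are control and 4 to 6 knockdown. Tdrd7 was lower on each knockdown array (295, 252 and 308 units) than on each control array (854, 804 and 905). Array 4 stood apart from the others, with a mean correlation of 0.957 with them over the 9200 tested genes against 0.971 to 0.976 for the rest. Of the lens epithelium markers, 5 of 10 were detected on all arrays (Cdh2, Cryab, Pax6, Six3 and Sox2), while Foxe3 and Pitx3 were detected on none. Their summed signals were 5499 to 6085 units in control and 3448 to 9332 in knockdown. Of the 5 detected, 2 had a positive and 3 a negative fitted change, from -0.50 ± 0.22 log2 units (SE) for Sox2 to 1.00 ± 0.33 for Pax6. Of 16 lens fibre markers on the array, Cryba4 and Crybb3 were detected on all arrays and 12 on none. The fibroblast markers Col1a1, Dcn, Pdgfra and Thy1, 4 of 6, were also detected on all arrays, with summed signals of 4170 to 9431 units in control and 6768 to 16707 in knockdown.

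The ligand gene Adm gave a clear signal on all 6 arrays and lower values in every knockdown sample. Its single probe, ILMN_1247207, read 1439, 1238 and 1550 intensity units on control arrays 1, 2 and 3. On knockdown arrays 4, 5 and 6 it read 752, 588 and 359. The lowest control value was thus well above the highest knockdown value, and array 6 gave the weakest signal. The means were 1409 ± 159 in control and 566 ± 197 in knockdown (SD, n = 3). After background correction and quantile normalization the values were 10.17, 10.44 and 10.75 log2 units in control and 9.18, 8.86 and 8.69 in knockdown. A gap of 0.99 log2 units separated the groups, more than 3 times the SD within either group, which was 0.29 in control and 0.25 in knockdown. The fit put the difference at -1.54 ± 0.22 log2 units (SE), knockdown minus control, and its 95% interval ran from -2.05 to -1.04. On this scale 34.3% of the control level remained, and only 4 of the 9200 tested genes had a more negative fitted change.

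The receptor partner gene Ramp2 was lower too, by a smaller amount. Ramp2 pairs with the Calcrl product to form the adrenomedullin receptor that vessels depend on. Its probe, ILMN_2661422, read 395, 256 and 364 units in control and 239, 268 and 191 in knockdown. On this raw scale the groups overlapped, because control array 2 lay below knockdown array 5. After normalization they did not overlap, at 8.12, 7.92 and 8.45 log2 units in control and 7.29, 7.57 and 7.50 in knockdown, with a gap of 0.34. The fitted difference was -0.71 ± 0.20 log2 units (SE), with an interval from -1.17 to -0.25, and 61.2% of the control level remained. Background correction with no normalization between arrays also left the groups overlapping, with the lowest control value at 7.66 and the highest knockdown value at 7.72 log2 units. The separation of the groups for this gene therefore depends on the normalization between arrays, while the lower mean does not.

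The other partner gene, Ramp3, had higher means in knockdown on each of its 3 probes, but the groups overlapped on all of them. Ramp3 forms an adrenomedullin receptor of a second kind and also steers the receptor inside the cell. Its brightest probe, ILMN_2749052, gave 564, 443 and 348 units in control and 918, 504 and 460 in knockdown. The normalized values were 8.70, 8.86 and 8.37 log2 units in control and 9.47, 8.62 and 9.11 in knockdown. Array 4 was the highest and control array 3 the lowest, and knockdown array 5 lay below control arrays 1 and 2. The fitted difference was 0.42 ± 0.25 log2 units (SE), with an interval from -0.16 to 1.01 that spans 0.

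The 3 Ramp3 probes agreed closely in size, at 0.42, 0.40 and 0.44 log2 units, and less closely array by array. Probe ILMN_3073644 gave 275, 315 and 221 units in control and 488, 296 and 278 in knockdown. Probe ILMN_3152486 gave 381, 332 and 261 in control and 662, 334 and 348 in knockdown. Array 4 was the highest on all 3 probes. In raw signal control array 2 was above control array 1 on ILMN_3073644 and below it on ILMN_3152486. After normalization control array 2 was above control array 1 on all 3 probes. The lowest array was then control array 1 on ILMN_3073644 and control array 3 on ILMN_2749052 and ILMN_3152486. Without array 4, which stood apart over all genes, the fitted change of Ramp3 was 0.22 ± 0.23 (SE), against 0.42 with it. In the same fit Adm was at -1.67 ± 0.22 and Ramp2 at -0.62 ± 0.21. The values of Adm and Ramp2 thus do not rest on that array, and that of Ramp3 does in part.

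**Figure D1:**
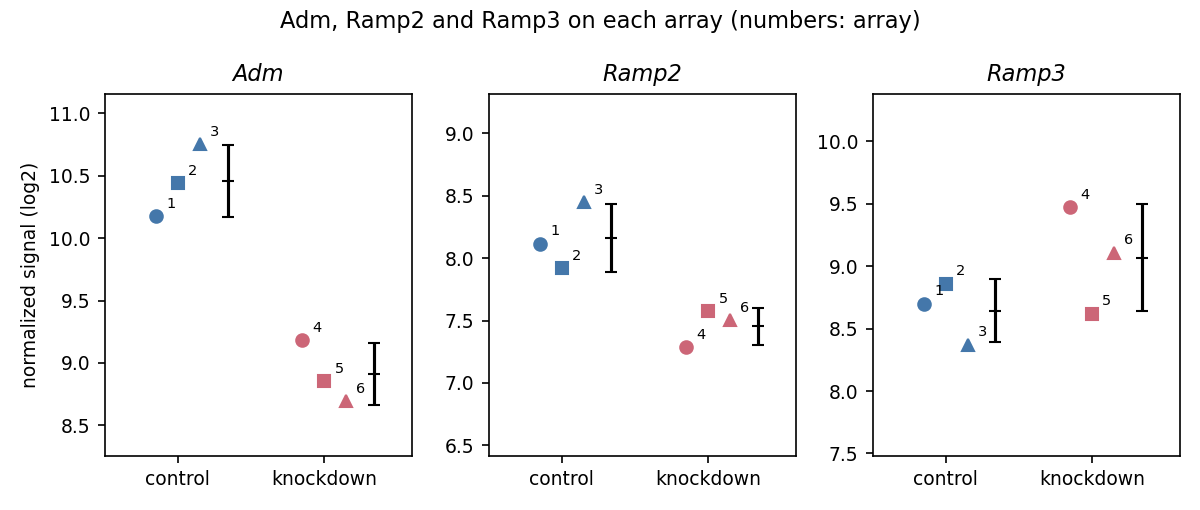
Normalized signal (log2, vertical axis, the same span in each panel) of Adm, Ramp2 and Ramp3 by group, with 1 point per array labelled by array number and black bars for the mean ± SD of 3 arrays. The groups are 0.99 log2 units apart for Adm and 0.34 for Ramp2, and they overlap for Ramp3.

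The receptor gene itself was not detected. Calcrl, without which neither Ramp2 nor Ramp3 makes an adrenomedullin receptor, has 1 probe on the array, ILMN_1235390. It read 56.8, 55.9 and 53.3 units in control and 54.3, 60.2 and 58.8 in knockdown. Its detection p lay between 0.858 and 0.996, so most background probes were brighter on each array. The normalized values of 4.39 to 4.49 log2 units were below the lowest detected signal of the arrays, 5.23 to 5.34. With 1 probe, a signal below the detection limit does not show that no transcript was present.

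Ramp1 and Ackr3 were below the detection limit as well. Ackr3 read 62.8, 68.8 and 63.2 units in control and 72.4, 62.2 and 67.9 in knockdown, with detection p from 0.389 to 0.866. Ramp1, the partner for calcitonin gene-related peptide, has 2 probes. ILMN_1239630 read 73.2, 66.8 and 62.2 units in control and 72.5, 73.0 and 60.7 in knockdown. ILMN_2734391 read 75.3, 71.6 and 77.3 in control and 97.0, 72.7 and 83.0 in knockdown. The second of these probes came closest to detection. Its detection p was 0.057 on array 6 and 0.069 on array 4, just short of the limit of 0.05, and the groups overlapped. No fold change is given for these 3 genes, since both groups were below the limit.

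**Figure D2:**
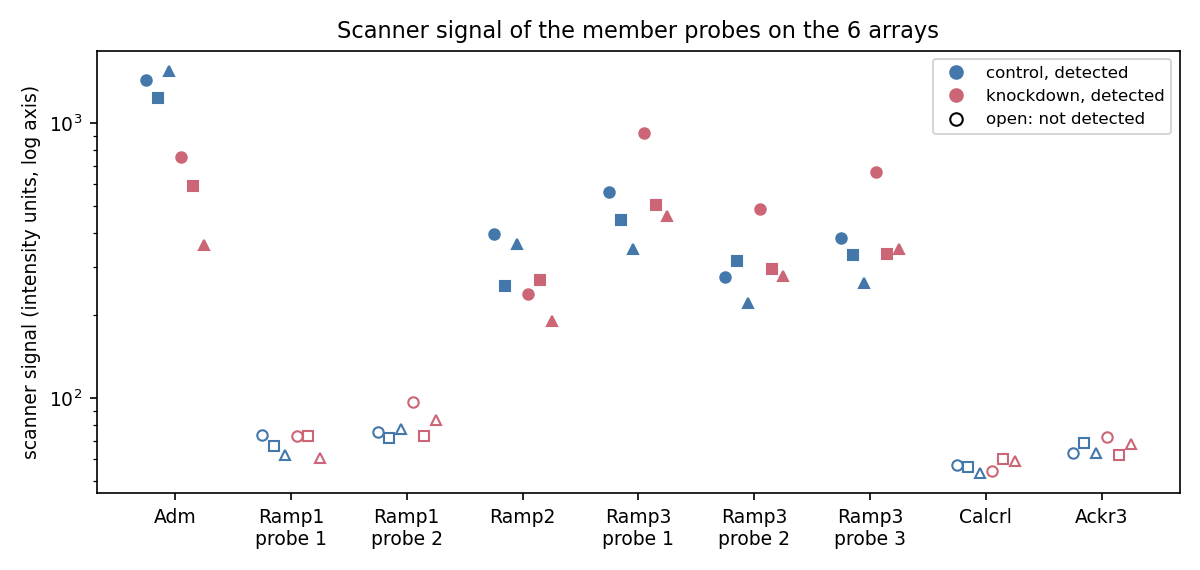
Scanner signal in intensity units (log axis) of the 9 member probes, with 6 points each for control arrays 1 to 3 (blue) and knockdown arrays 4 to 6 (red), from left to right. Filled points were detected (detection p under 0.05), as for Adm, Ramp2 and the 3 Ramp3 probes. Open points were not, as for both Ramp1 probes, Calcrl and Ackr3. Levels are not comparable between probes.

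Over all 9200 genes, limma called none at an adjusted p under 0.05 between the 2 groups, so 0 of the 3 tested members were called, with a background of 0%. At an unadjusted p under 0.05 the members Adm and Ramp2 passed, 2 of 3, where 3.29% of all genes did. The groups did not overlap for these same 2 members, both lower in knockdown, where 3.50% of all genes had every knockdown array below every control array, 4.33% had every one above and 7.83% were apart in either direction. Adm was selected on this contrast, and Ramp2 as part of its receptor with results of the contrast already known, so nothing is read from these counts.

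Within the groups, the members shared only part of their order. Relative to its mean over the 6 arrays, Adm was at 0.49, 0.75 and 1.07 log2 units on arrays 1, 2 and 3 and at -0.50, -0.83 and -0.99 on arrays 4, 5 and 6. Ramp2 was at 0.31, 0.11 and 0.64 on the control arrays and at -0.52, -0.23 and -0.31 on the knockdown arrays. Control array 3 was highest for both genes. Among the knockdown arrays, array 4 was highest for Adm and lowest for Ramp2. The brightest Ramp3 probe was lowest on control array 3, at -0.48, and highest on knockdown array 4, at 0.62.

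**Figure D3:**
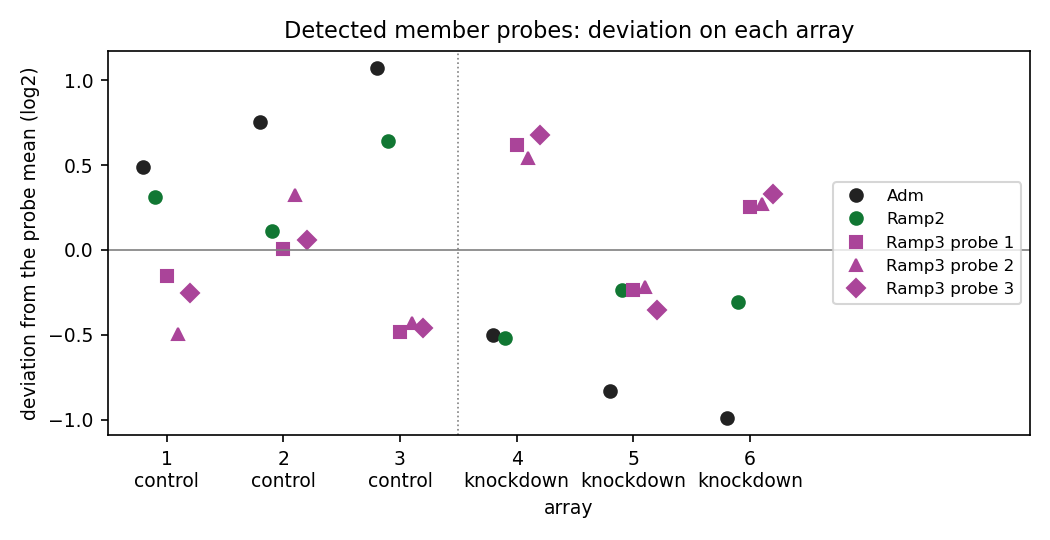
Deviation of each detected member probe from its own mean over the 6 arrays (log2, vertical axis) by array (horizontal axis, control left of the dotted line). Adm and Ramp2 are above 0 on all control arrays and below it on all knockdown arrays. The 3 Ramp3 probes are highest on array 4, and the first is at 0.62 there.

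The 5 tested genes whose profile over the 6 arrays lay nearest to that of Adm were Peg3, Rnf113a2, Syt9, Fahd2a and Prxl2b. Likeness was the root mean square difference between the normalized profiles after each was centred on its own mean. It was 0.20 log2 units for Peg3, an imprinted gene for a zinc finger protein, and 0.24 for Rnf113a2, a ring finger gene. For Syt9, a gene of the synaptotagmin family of membrane traffic proteins, it was 0.30, for Fahd2a 0.31 and for Prxl2b 0.32, while the median over all genes was 0.85. Peg3 gave 6.73, 6.86 and 7.73 log2 units on the control arrays and 5.57, 5.31 and 5.12 on the knockdown arrays. Like Adm, these genes were highest on control array 3, and their groups did not overlap. This largely follows from choosing them by likeness to Adm, so nothing is read from it. Only Rnf113a2 was detected on all 3 knockdown arrays. Syt9 was detected on 2 of them, Peg3 and Fahd2a on 1 each and Prxl2b on none, so the knockdown ends of their profiles lay near background, where Adm's did not. The choice of genes depends on the background correction. With none before quantile normalization, Peg3 and Rnf113a2 were still the nearest, at 0.27 and 0.28 log2 units, but Fahd2a, Syt9 and Prxl2b ranked 8, 18 and 35, and the fitted change of Peg3 was -0.92 against -1.77.

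Other peptides and receptors of the family gave little signal. Of the other ligands on the array, Adm2 (intermedin), Calcb and Iapp (amylin), none was detected well enough to be tested. Adm2 was detected on 1 control and 2 knockdown arrays, with signals from 77.8 to 110.02 units. Iapp was detected on 1 array of each group and Calcb on none. All 3 probes of the calcitonin receptor gene Calcr and both probes of Gpr182, which encodes another scavenger receptor, were below the limit on every array. Crcp, which encodes a component known to help this receptor family signal and which is also a subunit of an RNA polymerase, was the 1 tested receptor component outside the set, at -0.07 ± 0.18 log2 units (SE). Its normalized means were 9.47 in control and 9.40 in knockdown.

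The second ligand of Ackr3 was present although the receptor was below the limit. Cxcl12, which encodes a chemokine, gave normalized values of 10.52, 10.82 and 11.62 log2 units in control and 10.46, 10.25 and 11.21 in knockdown on its brightest probe, with a fitted log2 fold change of -0.35 ± 0.35 (SE). Of its 5 probes 3 were tested, and their fitted changes ranged from -0.73 to -0.35. The groups overlapped, and the highest array of each group was array 3 or 6. Without control array 3 the fitted change of Cxcl12 was -0.03, and without knockdown array 6 it was -0.63. Mif, a cytokine gene, was at -0.01 ± 0.22 log2 units. Cxcr4, the signalling receptor for the same chemokine, was detected on 1 array of each group (132.5 units on array 1 and 182.7 on array 4). Cxcr3, Cxcl11 and Cd74 were detected on none.

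The enzymes that make and clear the peptide gave small differences. Of 9 genes on the array for peptide processing, binding and breakdown, 6 were tested, 5 with a positive and 1 with a negative fitted change, and 0 passed the limma test in either direction. Pam, the enzyme that amidates adrenomedullin, was at 0.39 ± 0.22 log2 units (SE), with values of 9.47, 8.90 and 9.24 in control and 9.91, 9.40 and 9.47 in knockdown. Its other tested probe gave 0.16. The endothelin-converting protease gene Ece1 was at 0.31 ± 0.28 and the carboxypeptidase gene Cpe at 0.11 ± 0.26. Without array 4 Pam was at 0.22, Ece1 at 0.05 and Cpe at -0.08, and without array 5 Ece1 was at 0.56. Ide, a peptide-degrading protease, was at 0.28 ± 0.22, but its 3 probes disagreed in sign, from -0.64 to 0.35.

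The machinery between receptor and cyclic AMP was expressed, with median changes near that of all genes. In the coupling and desensitisation list 14 of 17 genes were tested, and 7 were above and 7 below control with a median log2 fold change of -0.01, where the median of all tested genes was 0.01. Gnas, the stimulatory G protein subunit, was at -0.15 ± 0.23 (SE) on its brightest probe, and its 3 tested probes ranged from -0.76 to -0.15. Gnb1, a G protein beta subunit, was at -0.33 ± 0.21, and the beta-arrestin gene Arrb2, which ends receptor signalling, at -0.29 ± 0.18. Arrb2 had values of 7.52, 7.52 and 7.57 log2 units in control and 7.46, 7.23 and 7.06 in knockdown, without overlap. Nsf, which acts in membrane fusion, was at -0.19 ± 0.26.

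Of the cyclic AMP production, effector and breakdown genes 21 of 32 were tested, 15 above and 6 below control, with a median of 0.09 log2 units. The largest fitted changes were those of the adenylyl cyclase gene Adcy9 at 0.45 ± 0.30 (SE), the phosphodiesterase genes Pde10a at 0.43 ± 0.31 and Pde4b at 0.38 ± 0.42, and the coactivator gene Crebbp at -0.42 ± 0.22. Crebbp was detected on 1 of the 3 knockdown arrays. Each of these 4 genes had overlapping groups. Adcy9, Pde10a and Pde4b were highest on array 4, and without that array they were at 0.11, 0.23 and 0.03, so their place at the top of the list rests in part on it.

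Genes known to respond to cyclic AMP had 11 of 17 members tested, 9 above and 2 below control. Over all tested genes 4813 of 9200 were above. The median of the list was 0.27 log2 units, against 0.01 over all genes. Sik1, a kinase gene of that response, was the member with the largest fitted change, at 0.86 ± 0.28 (SE). Its values were 6.05, 6.06 and 5.25 log2 units in control, where it was detected on 2 of 3 arrays, and 7.01, 6.40 and 6.54 in knockdown, without overlap. Its signal was low, and with no background correction before quantile normalization its fitted change was 0.43. The clock gene Per1 was at 0.50 ± 0.57 and the phosphatase gene Dusp1 at 0.39 ± 0.60. Both were highest on array 4, at 9.60 and 13.69, and without array 4 they were at -0.21 and -0.08. This list also holds immediate early genes, whose level moved with the array inside each group. Dusp1 ran from 11.24 to 13.07 log2 units within control alone, falling from array 1 to 3, and it fell from array 4 to 6 too. None of the list passed the limma test. Pde4b, Pde4d and Crem are also in the list of cyclic AMP production, effectors and breakdown, so the counts of these lists are not separate.

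Adm is a known hypoxia target, and the other genes of that response were split between both directions. Of 41 such genes on the array 33 were tested, 18 above and 15 below control, with a median log2 fold change of 0.03. Their fitted changes ran from -0.57 to 0.63. That of Adm lay outside this range, but Adm was selected on this contrast, so nothing is read from the comparison. Vegfa, the vascular growth factor gene, was at 0.63 ± 0.29 (SE), with values of 10.78, 9.96 and 9.91 log2 units in control and 11.23, 10.84 and 10.48 in knockdown. Its other tested probe gave 0.20. Ndrg1 was at 0.57 ± 0.35 and the lysyl oxidase gene Lox at 0.54 ± 0.44, both highest on array 4, and without that array they were at 0.14 and 0.07. The hormone gene Stc2 was at -0.57 ± 0.23. Hif1a, the oxygen-regulated transcription factor subunit, was at 0.30 ± 0.31 and at -0.02 without array 4.

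Of the other vasoactive peptide and receptor genes 4 of 25 were tested. Edn1, the gene of the constrictor peptide endothelin, was at 0.16 ± 0.74 log2 units (SE), with values from 6.90 to 10.07 in control and from 7.74 to 9.32 in knockdown. It varied more within each group than between them, falling from array 1 to 3 and from array 4 to 6. The natriuretic peptide receptor genes Npr3 and Npr2 were at 0.39 ± 0.23 and -0.13 ± 0.26, and Npr3 was detected on 1 of 3 control arrays. The PACAP receptor gene Adcyap1r1 was at -0.10 ± 0.23.

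**Figure D4:**
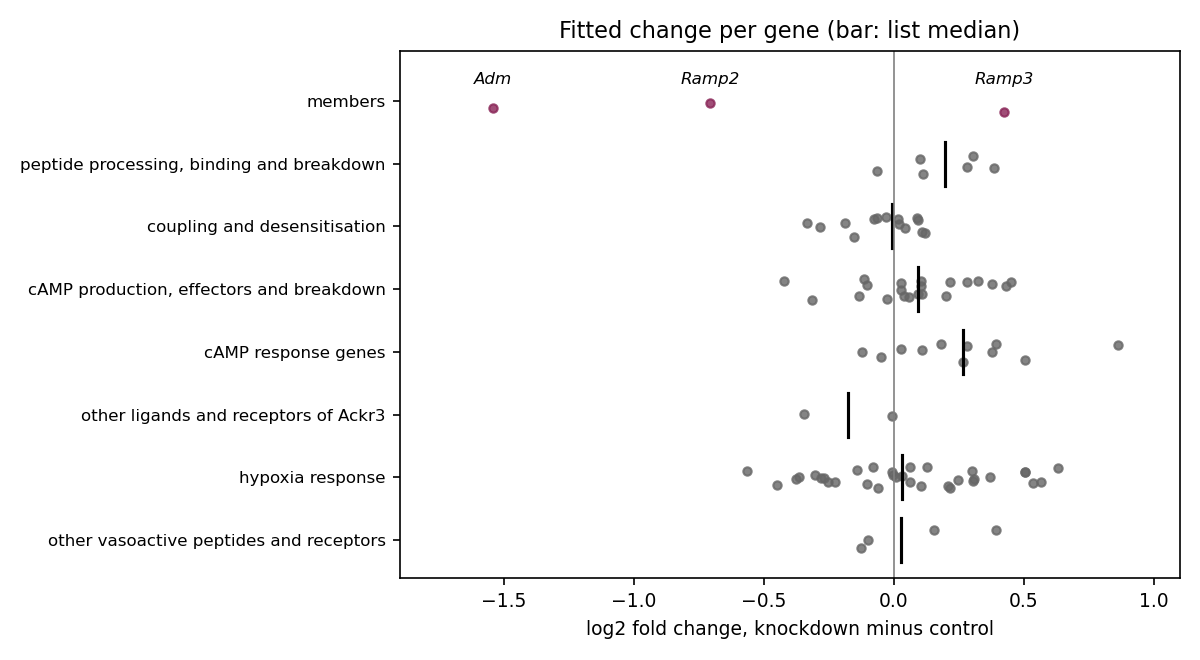
Fitted log2 fold change, knockdown minus control (horizontal axis), of the 3 tested members (top) and of the other tested genes of each list with more than 1 tested gene. Each point is 1 gene, bars are list medians and vertical scatter is only for legibility. Adm, which was selected on this contrast, is at -1.54 and lies to the left of every pathway gene shown.

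Over all lists, 0 of 89 tested genes were called by limma, and the lowest adjusted p among them was 0.998. Without adjustment 4 of them had a p under 0.05, or 4.49%, against 3.29% of all genes. These were Sik1, Stc2 and the hypoxia genes Mxi1 and Pfkfb3, the last 2 named after their values were seen. The groups did not overlap for 9 of the 89, or 10.1%, against 7.83% of all genes, 5 higher and 4 lower in knockdown. Sik1 and Pfkfb3 are among the 5 higher genes, so nothing is read from these counts.

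Because Ramp2 and Adm are also strongly expressed in vessel cells, markers of other cell types were examined. In such bulk RNA, fewer cells of a type and less RNA per cell cannot be told apart. Of 16 endothelial markers 13 were detected on no array, among them Pecam1, Cdh5, Kdr, Tek and Tie1. Egfl7 and Flt1 were detected on all, at 0.26 ± 0.17 and -0.48 ± 0.47 log2 units (SE), and Egfl7 was higher on every knockdown array than on any control array. The summed signal of the list was 1899 to 2367 units in control and 1872 to 2524 in knockdown, so the groups overlapped. Of 6 lymphatic markers 4 were detected on no array, Lyve1 and Flt4 among them, and Pdpn and Prox1 on all, with summed signals of 8412 to 13044 units in control and 6174 to 12361 in knockdown. Most of these sums was Pdpn, whose normalized mean in control was 13.32 log2 units against 7.47 for Prox1. The fitted change was -0.31 ± 0.21 log2 units (SE) for Pdpn and -0.65 ± 0.53 for Prox1, and the groups overlapped for each. Of 9 macrophage markers 8 were detected on no array. Of the smooth muscle and pericyte markers 5 of 10 were detected on all arrays, with summed signals of 32633 to 43532 units in control and 38253 to 39972 in knockdown. All 5 of these and all 4 tested fibroblast markers had a positive fitted change, as had 4813 of all 9200 genes. The changes ran from 0.06 ± 0.18 log2 units (SE) for Acta2 to 1.19 ± 0.70 for Dcn, and the groups overlapped for each. Col1a1, Dcn, Thy1 and Smtn were highest on array 4. The smooth muscle and pericyte markers Cnn1, Des and Rgs5 and the fibroblast markers Col1a2 and Lum were detected on no array. The samples were of an epithelial line derived from the mouse lens. Signal of an endothelial, lymphatic, smooth muscle or fibroblast marker therefore does not show that cells of these types were present. Whether such cells were present, and gave part of the member signal, was not tested.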

How the data were processed

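Total RNA of 6 samples was labelled for Illumina arrays, per the labels' protocols. The deposited scanner table holds, per the file headers, a linear intensity for each probe and array, each followed by a detection p-value. The software of the scanner is not given in the sources used here. A second table that the authors deposited has processed intensity values, with column medians of 78.4 to 81.6, and all 6 columns were linear in 1 scanner column of their group, with residuals up to 0.011 units. How they were scaled is not stated. Scanner columns name the group but not the replicate, so they were assigned by group. By the linear match, control samples 1 to 3 were arrays 1 to 3 in order. Knockdown samples 1 to 3 were arrays 4 to 6 in order.

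Intensities were normalized with neqc of limma 3.58.1 (R 4.3.3, offset 16, background inferred from detection p-values), which understates folds at low signal. Probes with a detection p under 0.05 on each of the 3 arrays of a group were kept (16349 probes), and a gene was its brightest such probe (9200 genes). Of the probes, 34885 had 1 symbol, 18 several and 10378 none. Groups were compared with lmFit and eBayes, with Benjamini-Hochberg adjustment over all genes. The fit was tested on simulated data. The number of arrays limits the precision.

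The members and the 9 gene lists were chosen with earlier results of these data known. The text names the members, Tdrd7, up to 4 tested genes per list with the largest absolute change, Cxcl12, Cxcr4, Pam, Gnas, Vegfa and Hif1a, and the 5 genes nearest to Adm. Same-numbered samples had deviations that correlated at -0.12, 0.12 and 0.59 on the authors' processed values, so the main fit did not take the numbers as pairs. Some genes still followed the number, as Dusp1 and Edn1 fell from sample 1 to sample 3 in both groups. Alternatives were other background corrections, scalings, filters, probe summaries, variance settings, the authors' values and leaving out each array. Figures used matplotlib 3.10.9.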

Additional observations from a re-analysis of the deposited data

How the results depend on the processing

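Adm, Ramp2 and Ramp3 kept their direction under all 18 alternatives each, and limma called none of them in any. Not all of these could have changed the direction. Adm and Ramp2 have 1 probe each, so other filters, probe averaging and the variance settings without array weights left their fitted changes as they were. Leaving out 1 array could hardly reverse Adm, whose groups lay 0.99 log2 units apart. Their log2 fold changes ranged from -1.80 to -1.40 for Adm, -0.83 to -0.53 for Ramp2 and 0.22 to 0.65 for Ramp3. Leaving out 1 array gave -1.69 to -1.40, -0.83 to -0.57 and 0.22 to 0.65. Ramp3 was smallest without knockdown array 4 and largest, at 0.65, without knockdown array 5. The count of changed genes, not taken for the neqc offset of 50, was 0 in 17 of 18 alternatives and 1 in that of every probe by itself, since probes without a gene name then enter, and that probe has none. No list gene passed under any alternative. A fit with the replicate block used the authors' values, a choice made after seeing the data, and in it Adm was at -1.41, Ramp2 at -0.53 and Ramp3 at 0.37, with 0 genes changed. On these values the block lowered the SE of Dusp1 from 0.62 to 0.14. It lowered that of Cxcl12 from 0.33 to 0.14 and that of Edn1 from 0.64 to 0.27. For Adm the SE rose from 0.18 to 0.21, and for Ramp2 it was 0.14 in both. The main SE of genes that followed the sample number thus includes spread that same-numbered samples share. Slide could not be fitted because the files name none.

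Of 33 other named genes, 12 changed sign under some setting, without a call on either side. With probes averaged per gene Ide was at -4.2e-04, and Mif was at 0.016 without normalization between arrays and at 0.062 with array weights. Leaving out 1 array gave -0.23 to 0.090 for Adcyap1r1, -0.080 to 0.39 for Cpe, -0.15 to 0.036 for Crcp, -0.16 to 0.94 for Dusp1, -0.63 to 0.96 for Edn1, -0.29 to 0.012 for Gnas, -0.019 to 0.53 for Hif1a, -0.21 to 0.15 for Mif, -0.34 to 0.11 for Npr2, -0.35 to 0.066 for Nsf and -0.21 to 0.99 for Per1. Leaving out 1 array moved 23 of the 32 named genes besides Tdrd7 by more than 1.5 times, 16 of them when array 4 was left out, and the other settings moved 20. The 5 genes nearest to Adm were chosen in the main setting, so that setting holds all 5 by definition. In the other scalings, a comparison added after seeing the data, 2 or 3 of them stayed among its 5 nearest. Of those scalings, 75th percentile scaling and no normalization between arrays gave the same profile differences, so they are not separate comparisons. The cause was not tested.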
